A study of Sus scrofa with 24 samples.

Results

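The liver levels of 10 genes that serve protein folding and stress signalling in the endoplasmic reticulum (ER) were followed in 24 pigs. The genes were XBP1, HSPA5, HSP90B1, CALR, DNAJB11, SDF2L1, PDIA4, ATF4, DDIT3 and HYOU1. They are 10 of the 3949 named genes with a tested probe. By name, 37 of the 43603 probes that were not controls belonged to them, and 36 passed a filter that asked for a signal well above background in 6 or more pigs of some group of 8, as 29665 probes of the whole array did. They were listed because of their values in restricted against high RFI pigs. Pigs weighed 115 kg, each liver was hybridised to 1 array, and groups differed in residual feed intake (RFI), the feed eaten beyond that predicted from growth and maintenance. RFIplR pigs were of the high RFI line and received as much feed as the low RFI line eats (restricted pigs, n = 8). RFIpl pigs were of the same high RFI line with free access to feed (high RFI pigs, n = 8), and RFIneg pigs were of the low RFI line with free access to feed (low RFI pigs, n = 8). Restricted against high RFI pigs is a comparison of feeding level within the high RFI line, high against low RFI pigs is one of lines at free intake, and restricted against low RFI pigs is one of lines at the same feeding level. No restricted group of the low RFI line was analysed here.

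Secreted and membrane proteins fold in the ER, and hepatocytes export large amounts of plasma protein through it. HSPA5 (also called BiP) is the ER's HSP70 chaperone, which DNAJB11 and SDF2L1 assist and HYOU1, a large HSP70 relative, serves as a nucleotide exchange factor. HSP90B1 (GRP94) is the ER's HSP90, CALR is a lectin chaperone that binds calcium and glycoproteins, and PDIA4 is a protein disulfide isomerase. When unfolded protein accumulates, the unfolded protein response raises these chaperones, with XBP1 as the transcription factor of its IRE1 branch and ATF4 and DDIT3 (CHOP) as the factors of its PERK branch.

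Probe sequences show what the array reads for the genes on which the results turn. Soluble ER proteins carry a KDEL-type signal at their C-terminus that returns them from the Golgi, and probes of HSP90B1 and SDF2L1 cover its codons, given in capitals. The HSP90B1 probes A_72_P665834 and A_72_P414208 share a run of 28 bases that includes these codons. Of the SDF2L1 probe A_72_P624431, the first 26 of 60 bases are printed, up to the stop codon.
HSP90B1 A_72_P665834: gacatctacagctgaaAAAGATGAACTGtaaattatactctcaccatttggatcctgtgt
HSP90B1 A_72_P414208: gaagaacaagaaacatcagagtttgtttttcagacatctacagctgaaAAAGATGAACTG
SDF2L1 A_72_P624431: cctctgcaggtCATGATGAACTCtga

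A pair of neighbouring XBP1 probes overlaps by the 9 bases in capitals and otherwise reads different sequence, so that these probes bind largely apart. That does not hold for A_72_P488529 and A_72_P536555, XBP1 probes that share a run of 36 bases. The array design names XBP1 under the symbol of a pseudogene, XBP1P1, and its transcript accession belongs to XBP1 in RefSeq for Sscrofa11.1. No XBP1 probe is marked in the scanner output as specific to the spliced or unspliced message, so the values are for XBP1 mRNA as a whole.
XBP1 A_72_P592109: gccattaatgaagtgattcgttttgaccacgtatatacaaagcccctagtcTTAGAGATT
XBP1 A_72_P544772: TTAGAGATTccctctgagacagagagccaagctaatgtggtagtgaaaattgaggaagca

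HSPA5 and HYOU1 had a single probe each. Among brightest probes of different genes, these 2 varied most closely together across pigs in processed signal, and so they are shown. With another background correction their r was -0.08. The longest run that they share is 6 bases, in capitals.
HSPA5 A_72_P416982: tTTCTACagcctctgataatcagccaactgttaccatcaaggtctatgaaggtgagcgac
HYOU1 A_72_P139986: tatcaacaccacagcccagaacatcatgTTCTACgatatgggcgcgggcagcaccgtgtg

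Across the 24 arrays, 63.2% to 72.7% of spots were well above background, and correlations between arrays ran from 0.971 to 0.991. The arrays lay on 6 slides, each with all 3 groups, read on 2 scan days. Depth has no counterpart on arrays, and the number of pigs limits the precision. Levels are processed signals on a log2 scale with each array's 75th percentile set to 0, and differences are differences of group means on that scale. Since the choice of genes used restricted against high RFI pigs, its values for them are descriptive and carry no test. In bulk liver RNA, more cells of a type and more RNA per cell cannot be told apart.

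By their brightest probes, the 7 chaperone and folding genes were higher in restricted pigs than in either other group. Differences were 0.18 to 0.51 against high RFI pigs and 0.29 to 0.54 against low RFI pigs. HYOU1 was the exception under another background correction, and the second PDIA4 probe went the other way in both comparisons. XBP1 was highest in restricted pigs, lowest in high RFI pigs and between them in low RFI pigs, an order that the brightest probe of PDIA4 and some HSP90B1 probes also had, with smaller differences between high and low RFI pigs. ATF4 and DDIT3, the factors of the PERK branch, differed by at most 0.13 in any comparison by their brightest probes, against SDs between pigs of 0.12 to 0.23 for ATF4 and 0.30 to 0.49 for DDIT3. None of the 36 probes passed the threshold of an adjusted p below 0.05 in limma, in any of the 3 comparisons.

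**Figure D1:**
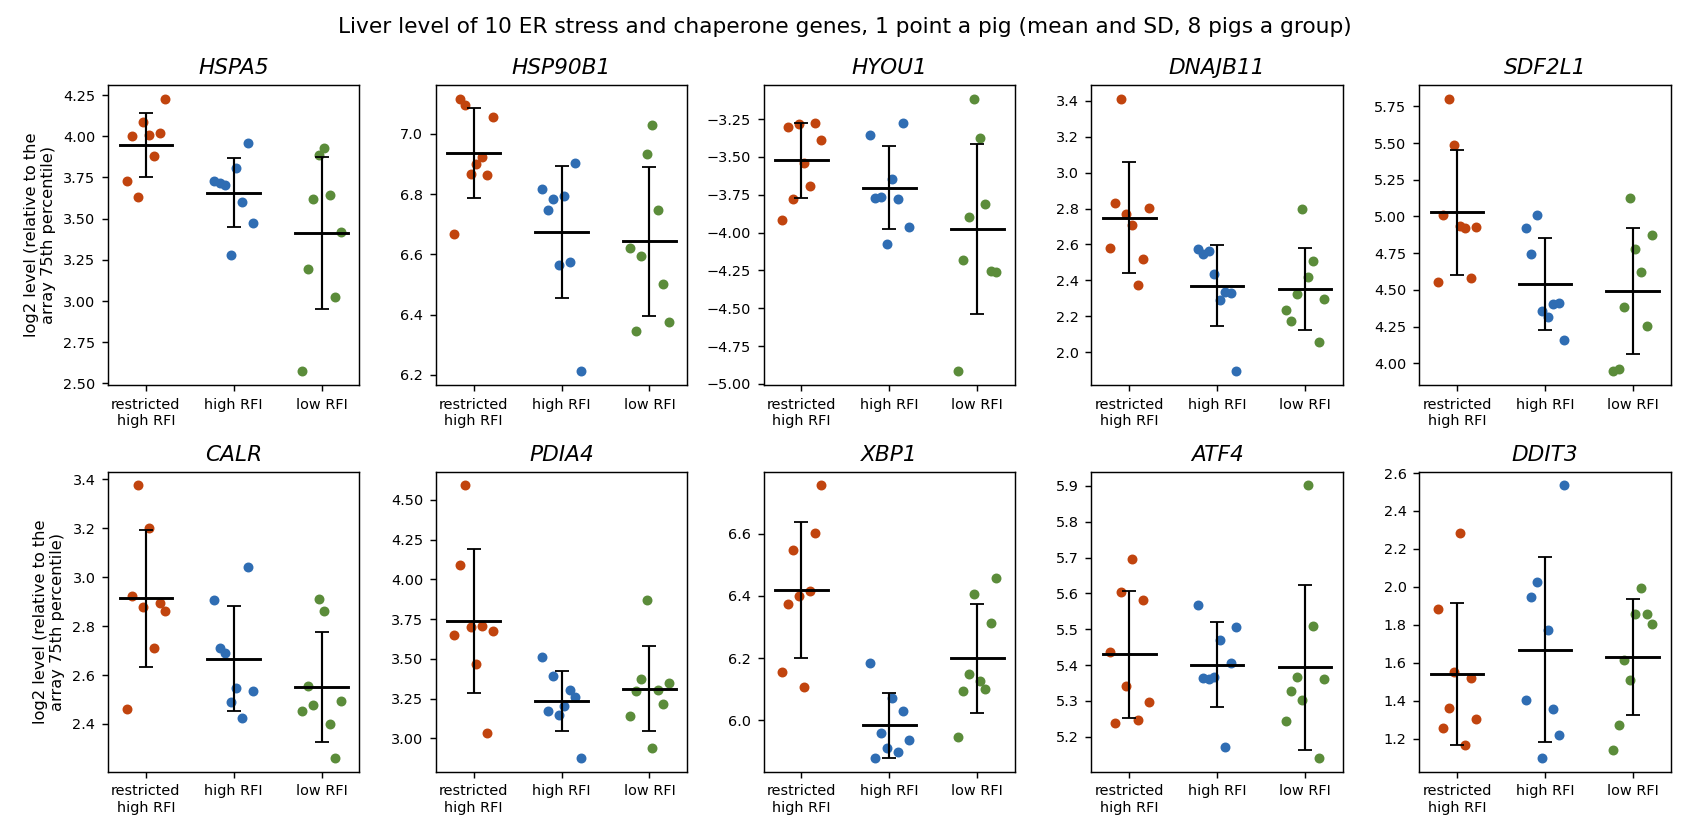
Level of each of the 10 genes by its brightest probe, as log2 signal minus the array's 75th percentile, on y axes that differ between genes. Each point is 1 pig, and the black line and bar are the mean and SD of 8 pigs. The 7 chaperone and folding genes and XBP1 have their highest means in restricted high RFI pigs, as does ATF4 by a small margin. Groups overlap for all 10 genes.

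HSPA5, the main ER chaperone, had levels of 3.63 at the lowest, 4.01 at the median and 4.23 at the highest in restricted pigs. High RFI pigs ran from 3.28 through 3.71 to 3.96, and low RFI pigs from 2.57 through 3.52 to 3.93. The groups overlapped, but 5 of 8 restricted pigs lay above every high RFI pig, and 5 of 8 above every low RFI pig. The mean difference was 0.29 ± 0.15 (SE) between restricted and high RFI pigs, a fold of 1.22. Between restricted and low RFI pigs it was 0.54 ± 0.15 (adjusted p = 0.127), a fold of 1.45, and between high and low RFI pigs 0.25 ± 0.15 (adjusted p = 0.647). Low RFI pigs were the most variable, with an SD of 0.46 against 0.19 in restricted and 0.21 in high RFI pigs.

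HSP90B1, the ER's HSP90, was read by 9 probes. Its brightest had a lowest, median and highest level of 6.67, 6.91 and 7.12 in restricted pigs, 6.21, 6.77 and 6.90 in high RFI pigs, and 6.35, 6.61 and 7.03 in low RFI pigs. The groups overlapped, with 4 of 8 restricted pigs above every high RFI pig. The 8 probes above background all lay above high RFI pigs in restricted pigs, by 0.26 to 0.51, and higher than in low RFI pigs, by 0.29 to 0.43, with adjusted p between 0.1 and 0.297 in that comparison with low RFI pigs. High minus low RFI differences ran from -0.18 to 0.03, and 3 of 8 lay above 0. The largest difference between restricted and high RFI pigs, 0.51 ± 0.13 (SE), came from A_72_P665834, the probe over the stop codon printed above. The other probe over the KDEL codons, A_72_P414208, was well above background on 0 of 8 arrays of restricted pigs, 2 of 8 of high RFI pigs and 1 of 8 of low RFI pigs, so it has only a bound in each group and was not tested.

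DNAJB11, an ER J-domain protein that delivers clients to HSPA5, ran from 2.37 through 2.74 to 3.41 in restricted pigs by its brightest probe, from 1.89 through 2.39 to 2.57 in high RFI pigs and from 2.06 through 2.31 to 2.80 in low RFI pigs. All 8 restricted pigs lay above the mean of the high RFI pigs and 6 above every one of them. The mean difference was 0.38 ± 0.13 (SE) against high RFI pigs and 0.40 ± 0.13 against low RFI pigs (adjusted p = 0.180). Its other probes differed by 0.42 and 0.50 between restricted and high RFI pigs, and by 0.42 and 0.56 between restricted and low RFI pigs. High minus low RFI differences of all 3 probes lay between 0.01 and 0.06.

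SDF2L1, which forms a complex with DNAJB11, had a lowest, median and highest level of 4.56, 4.93 and 5.80 in restricted pigs, 4.16, 4.41 and 5.01 in high RFI pigs, and 3.95, 4.5 and 5.13 in low RFI pigs. The groups overlapped, and 3 of 8 restricted pigs lay above every high RFI pig. The mean difference was 0.49 ± 0.19 (SE) against high RFI pigs and 0.54 ± 0.19 against low RFI pigs (adjusted p = 0.228), and 0.05 ± 0.19 between high and low RFI pigs (adjusted p = 0.966). All 5 probes gave 0.43 to 0.50 against high RFI pigs and 0.44 to 0.57 against low RFI pigs. They are partly the same measurement, because the brightest pair shares 52 bases and 3 of the other probes share runs of 17 to 37 bases with each other.

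HYOU1 was dim, with a processed signal between 14.3 and 49.3 units over all arrays, although well above background on every one. Restricted pigs ran from -3.91 through -3.46 to -3.28, high RFI pigs from -4.07 through -3.77 to -3.28, and low RFI pigs from -4.92 through -4.04 to -3.11. The groups overlapped fully, and no restricted pig lay above the highest pig of another group. Differences were 0.18 ± 0.19 (SE) for restricted minus high RFI, 0.27 ± 0.19 for high minus low RFI (adjusted p = 0.692) and 0.45 ± 0.19 for restricted minus low RFI (adjusted p = 0.302). With a normexp background correction all 3 turned below 0, to -0.05, -0.04 and -0.09.

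CALR, the calcium-binding lectin chaperone, ran from 2.46 through 2.89 to 3.38 in restricted pigs, from 2.43 through 2.62 to 3.04 in high RFI pigs and from 2.26 through 2.49 to 2.91 in low RFI pigs. Here 2 of 8 restricted pigs lay above every high RFI pig. The mean difference was 0.25 ± 0.12 (SE) against high RFI pigs and 0.36 ± 0.12 against low RFI pigs (adjusted p = 0.200).

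PDIA4, the disulfide isomerase, had a lowest, median and highest level of 3.03, 3.69 and 4.59 in restricted pigs, 2.88, 3.23 and 3.51 in high RFI pigs, and 2.94, 3.30 and 3.87 in low RFI pigs by its brightest probe. Here 6 of 8 restricted pigs lay above every high RFI pig, and the spread was widest in restricted pigs, with an SD of 0.45 against 0.19 in high RFI and 0.27 in low RFI pigs. The difference was 0.51 ± 0.16 (SE) against high RFI pigs, 0.43 ± 0.16 against low RFI pigs (adjusted p = 0.244) and -0.08 ± 0.16 between high and low RFI pigs (adjusted p = 0.917). The second PDIA4 probe, named through a transcript cluster of the array design, went the other way, by -0.13 ± 0.15 against high RFI pigs and by -0.23 ± 0.15 against low RFI pigs (adjusted p = 0.568). Across pigs it correlated with the first at r = -0.30 after group means were subtracted (n = 24), so that these probes do not read the same quantity and the gene is uncertain here.

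XBP1, the transcription factor of the IRE1 branch, showed the largest separation of restricted from high RFI pigs relative to its error. That comparison was used to choose the genes, so the ranking is a description only. The brightest XBP1 probe ran from 6.11 through 6.41 to 6.76 in restricted pigs, from 5.88 through 5.95 to 6.19 in high RFI pigs and from 5.95 through 6.14 to 6.46 in low RFI pigs. All 8 restricted pigs lay above the mean of the high RFI pigs and 6 above every one of them, while 4 of 8 high RFI pigs lay below every low RFI pig. The difference was 0.44 ± 0.09 (SE) for restricted minus high RFI, a fold of 1.35. It was -0.22 ± 0.09 for high minus low RFI (adjusted p = 0.452) and 0.22 ± 0.09 for restricted minus low RFI (adjusted p = 0.307). With normexp background correction the high minus low RFI difference of XBP1 was -0.12.

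Of the 7 XBP1 probes, 6 followed this order. They gave 0.44 to 0.52 for restricted minus high RFI, -0.32 to -0.22 for high minus low RFI, and 0.15 to 0.28 for restricted minus low RFI. Among these 6, A_72_P488529 and A_72_P536555 are partly the same measurement, because they share 36 bases. On the coding probe A_72_P592109 the groups did not overlap: levels ran from 2.35 through 2.63 to 3.11 in restricted pigs and from 1.98 through 2.08 to 2.34 in high RFI pigs. It was the only one of the 36 probes without overlap between restricted and high RFI pigs, and 0.027% of all tested probes had none. The genes were chosen on that comparison, so nothing is read from this count. In the other comparisons 0 of 36 were without overlap, against 0.138% of all probes in high minus low RFI and 0.131% in restricted minus low RFI. Its neighbour A_72_P544772 gave 0.51 ± 0.12 (SE) against high RFI pigs. The remaining probe, A_72_P227182, named by its description only, was dim and gave -0.04 ± 0.16 for restricted minus high RFI and 0.11 ± 0.16 for high minus low RFI (adjusted p = 0.868), and its correlation with the brightest probe across pigs was -0.08. The share of spots well above background was also unequal between groups, at 67.4% ± 2.81 in restricted, 70.2% ± 2.28 in high RFI and 67.8% ± 2.77 in low RFI pigs (SD, n = 8 each), and its part in these values was not tested.

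ATF4, which is regulated mainly through its translation, had a lowest, median and highest level of 5.24, 5.39 and 5.69 in restricted pigs, 5.17, 5.39 and 5.57 in high RFI pigs, and 5.14, 5.34 and 5.90 in low RFI pigs. Its 6 probes differed by -0.02 to 0.03 between restricted and high RFI pigs, by -0.13 to 0.01 between high and low RFI pigs and by -0.11 to 0.04 between restricted and low RFI pigs. Their standard errors were 0.07 to 0.11, and adjusted p was at least 0.678 in both comparisons with low RFI pigs.

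DDIT3, a target of ATF4 that acts in prolonged stress, ran from 1.17 through 1.44 to 2.28 in restricted pigs, from 1.10 through 1.59 to 2.54 in high RFI pigs and from 1.14 through 1.71 to 1.99 in low RFI pigs. The brighter probe gave -0.13 ± 0.19 (SE) for restricted minus high RFI, 0.04 ± 0.19 for high minus low RFI (adjusted p = 0.975) and -0.09 ± 0.19 for restricted minus low RFI (adjusted p = 0.882). Both DDIT3 probes correlated at r = 0.98 across the 24 pigs after group means were subtracted.

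Counted over the brightest probe of each gene, 9 of 10 genes lay above 0 in restricted minus high RFI, with a median difference of 0.28, where 46.9% of all tested probes lay above 0 with a median of -0.01. In restricted minus low RFI it was also 9 of 10, with a median of 0.38, where 48.7% of all probes lay above 0 with a median of -0.01. In high minus low RFI it was 8 of 10, with a median of 0.03, where 50.9% of all probes lay above 0. That count rests on single pigs: it was 3 without low RFI pig 2 (median -0.01) and 5 without low RFI pig 1, high RFI pig 1 or high RFI pig 3. The comparisons share pigs, restricted minus low RFI with each of the others, so their values are not independent of each other.

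The limma test called 0 of 36 probes in restricted minus high RFI, where 0% of all 29665 probes passed, 0 of 36 in high minus low RFI, where 0.162% passed, and 0 of 36 in restricted minus low RFI, where 0.222% passed. At an unadjusted p below 0.05, 23 of the 36 probes had higher means in restricted pigs when set against high RFI pigs, as did 2.55% of all probes. The genes were chosen on that comparison, and nothing is read from its count. In restricted minus low RFI 22 of 36 were higher, where 6.13% of all probes were, but the same restricted pigs entered the choice of genes, so that this count is not free of it either. On the first scan day alone, with fewer pigs, these counts were 21 against high RFI pigs and 22 against low RFI pigs. On the second scan day alone they were 5 and 2. Over all pigs, in high minus low RFI 5 of 36 were lower, all of XBP1, where 4.42% of all probes were. This count was 1 without low RFI pig 8, 2 without low RFI pig 4, and 3 without low RFI pig 7 or any of high RFI pigs 2, 3 and 4. The smallest adjusted p in the comparisons with low RFI pigs was 0.1, for the HSP90B1 probe A_72_P672550 in restricted minus low RFI (0.43 ± 0.11, SE).

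**Figure D2:**
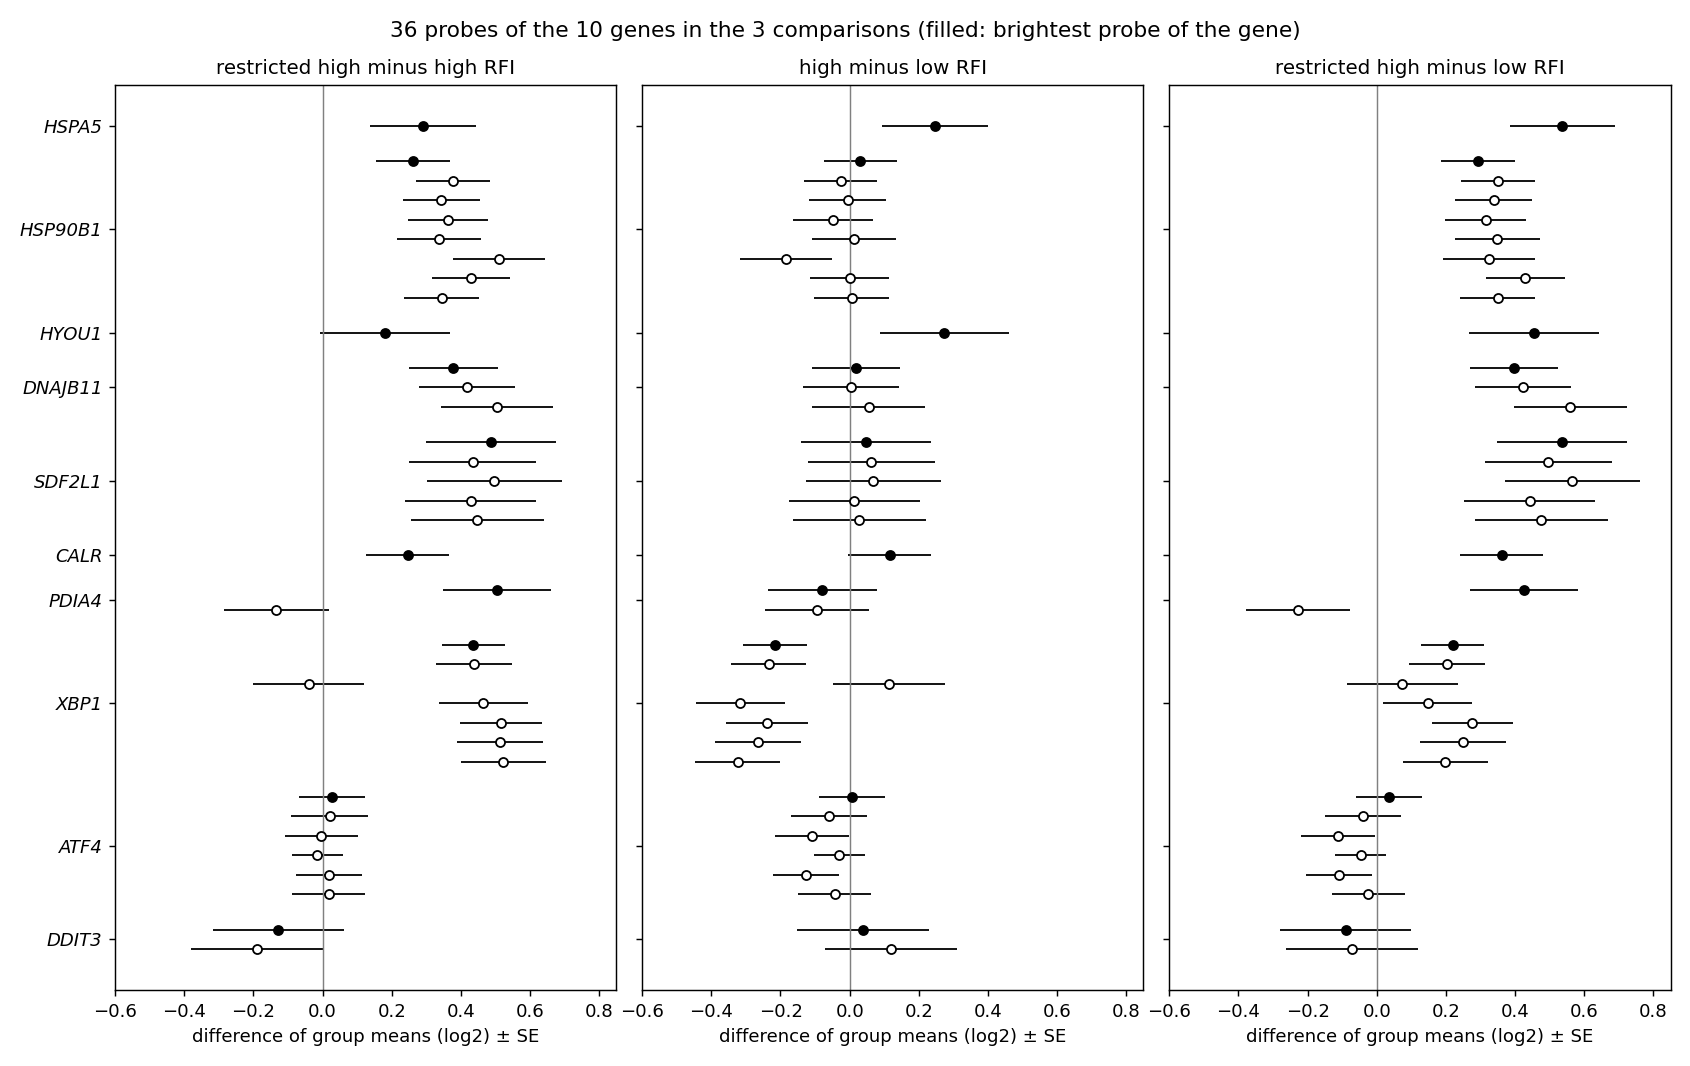
Difference of group means (log2, x axis) with its standard error for the 36 tested probes, grouped by gene down the page, in the 3 comparisons. Filled points are the brightest probe of each gene. HSP90B1, DNAJB11 and SDF2L1 lie to the right of 0 in both comparisons of restricted pigs with all their probes and around 0 in high minus low RFI, and 6 of 7 XBP1 probes lie to the left of 0 there.

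Within slides, each with 1 or 2 pigs per group, the restricted minus high RFI difference of XBP1, DNAJB11 and SDF2L1 lay above 0 on 6 of 6 slides, that of HSPA5, HSP90B1, CALR, PDIA4 and ATF4 on 5 of 6, HYOU1 on 4 of 6 and DDIT3 on 2 of 6. XBP1 was lower in high than in low RFI pigs on all 6 slides. By scan day, the first given first, the restricted minus high RFI difference was 0.48 and 0.39 for XBP1, 0.38 and 0.17 for HSPA5, 0.27 and 0.54 for DNAJB11, and 0.56 and 0.44 for PDIA4.

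As a mean over the 7 chaperone and folding genes, each taken relative to its average over all arrays, restricted pigs ran from -0.04 through 0.27 to 0.59, high RFI pigs from -0.40 through -0.06 to 0.16, and low RFI pigs from -0.56 through -0.18 to 0.34. Restricted pig 3 was the highest of all 24 and low RFI pig 1 the lowest. Restricted pig 1 was the only restricted pig below 0.

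Whether the genes also varied together among pigs of the same group was asked after the group means were subtracted, which removes the group differences. HYOU1 followed HSPA5 closely, with Pearson's r = 0.91 and Spearman's rho = 0.90 over 24 pigs (permutation adjusted p = 9e-05 for each, over 9 relations, where a raw p of 1e-05 is the smallest that the permutations can give). It was 0.85 without the 2 pigs farthest from the median of HSPA5, low RFI pigs 1 and 5, and 0.83 in restricted, 0.87 in high RFI and 0.94 in low RFI pigs. By scan day it was 0.96 and 0.86. With normexp background correction the same correlation was -0.08, and between -0.22 and 0.09 with any 1 pig left out. The mean signal of the HYOU1 probe was 51.6 to 83.1 units over a local background of 28 to 46, whereas that of HSPA5 was 2354 to 7019 units.

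HSP90B1 was the next to follow HSPA5, at r = 0.55 (permutation adjusted p = 0.0649) and rho = 0.61 (permutation adjusted p = 0.0199), with r = 0.60 without the 2 farthest pigs. It was 0.17 in restricted, 0.74 in high RFI and 0.61 in low RFI pigs, and by scan day 0.65 and 0.58. HSP90B1 thus passed an adjusted p below 0.05 by rho and not by r. The other 7 relations with HSPA5 passed by neither, with r from 0.03 for PDIA4 to 0.44 for SDF2L1 and permutation adjusted p of r between 0.117 and 0.882. Over all 29664 other tested probes, the correlation with HSPA5 ran from -0.45 at the 5th percentile to 0.44 at the 95th.

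Among the other 9 genes, 36 pairs were examined, an addition made after the data were seen, and 11 passed an adjusted p below 0.05, all with r above 0. With normexp 9 of the 11 had r between 0.57 and 0.82, and the exceptions were the pairs of HYOU1 with HSP90B1, at 0.64 and -0.58 with normexp, and with CALR, at 0.55 and -0.31 with normexp. The share that passes among pairs of other genes was not computed. DNAJB11 and SDF2L1 were the closest, at r = 0.79 and rho = 0.80 (permutation adjusted p = 0.00072 for each) over 24 pigs, with r = 0.67 without the 2 farthest pigs, 0.51 and 0.89 by scan day, and 0.82 with normexp. DNAJB11 and PDIA4 followed at r = 0.75 (permutation adjusted p = 0.00594) and rho = 0.59 (permutation adjusted p = 0.0206), but r was 0.49 without the 2 farthest pigs, and 0.09 and 0.88 by scan day, a difference between days that was not tested. HSP90B1 and CALR correlated at r = 0.63 (permutation adjusted p = 0.0101) and rho = 0.66 (permutation adjusted p = 0.0113), with r = 0.63 without the 2 farthest pigs, 0.91 and 0.67 by scan day, and 0.69 with normexp. XBP1 took part in none of the 11 pairs, and DDIT3 in none, while ATF4 did so with CALR at r = 0.52 (permutation adjusted p = 0.0449), where rho was 0.39 (permutation adjusted p = 0.165).

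**Figure D3:**
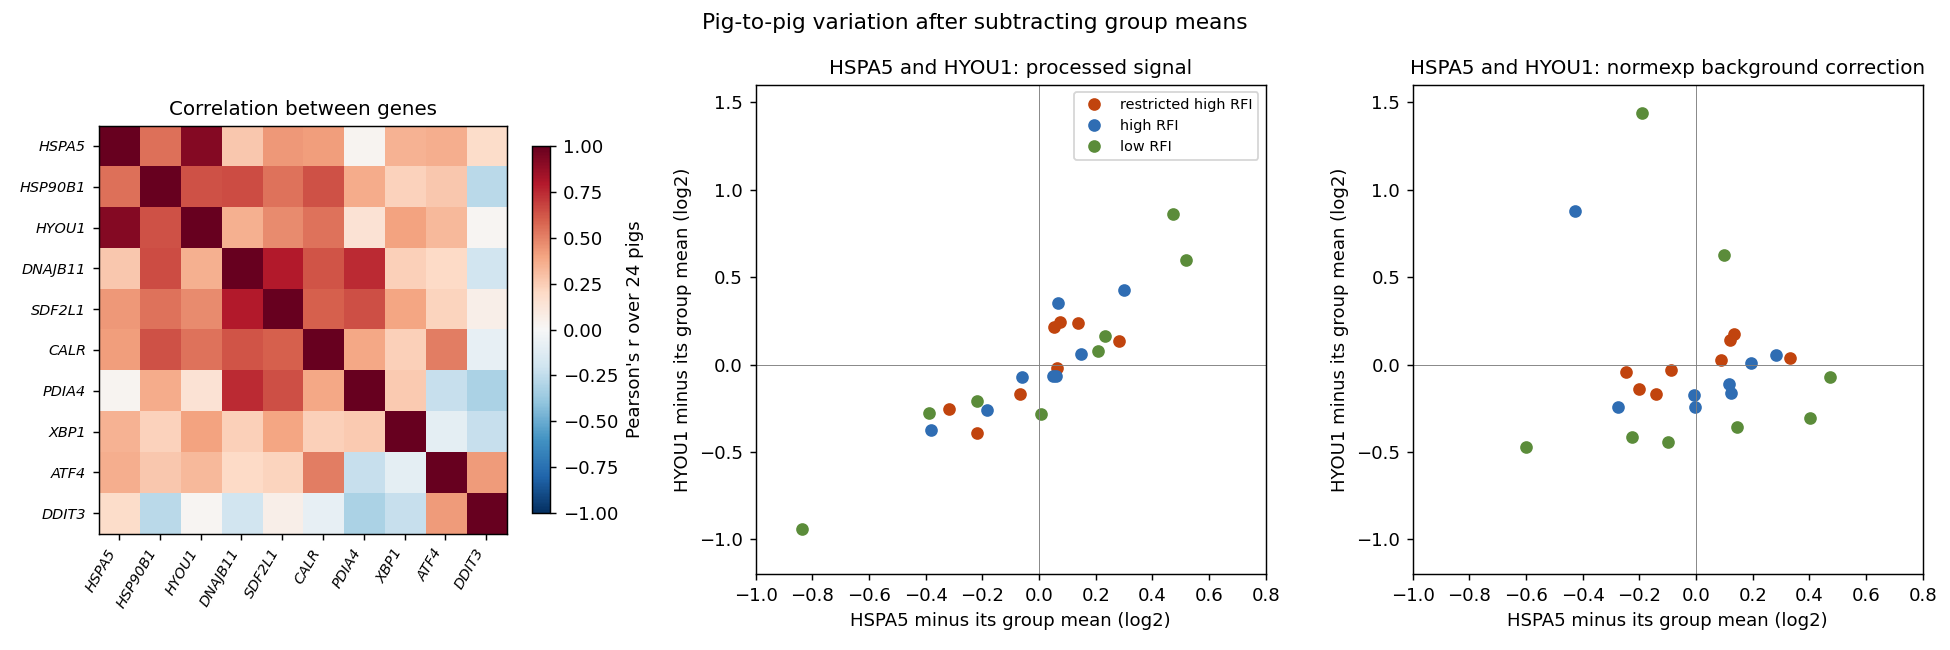
Left, Pearson's r between the 10 genes over 24 pigs after subtracting group means, on a colour scale from -1 to 1. Middle and right, HSPA5 (x axis) and HYOU1 (y axis) as deviations from their group means (log2), 1 point a pig, from the processed signal (r = 0.91) and after normexp background correction (r = -0.08).

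The 8 named genes most like the mean of the chaperone and folding genes across pigs, of 3939 compared, were MIF, ATP5G1, ERP44, NANS, COPB2, GBF1, CRELD2 and GAPDH. Their r with that mean ran from 0.77 to 0.83 over 24 pigs with group means subtracted, where the 95th percentile of all compared genes was 0.50. ERP44, a thioredoxin-family protein that retains clients in the early secretory pathway, had r = 0.81 and differed by 0.19 ± 0.07 (SE) between restricted and high RFI pigs. CRELD2, a secreted ER stress-inducible protein, had r = 0.77 and differed by 0.43 ± 0.21, and COPB2, a subunit of the COPI vesicle coat, had r = 0.78 and differed by 0.20 ± 0.12. MIF, a cytokine, and GAPDH, a glycolytic enzyme, had r = 0.83 and 0.77 and differed by -0.01 ± 0.08 and -0.08 ± 0.08. These values come from the same arrays and are a description.

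Beyond the 10 genes, 7 lists of related genes were read in the same way, 1 probe a gene, and none of their genes passed the limma threshold in any comparison. Over all tested probes, 46.9% lay above 0 in restricted minus high RFI, 48.7% in restricted minus low RFI and 50.9% in high minus low RFI. The lists were chosen with earlier results of these data known, and genes are named by their p in these comparisons. Their values are a description, and nothing is read from the counts. Folding and disulfide enzymes of the ER lay above 0 in 15 of 18 measured genes in restricted minus high RFI, with a median of 0.18. Of the 18, 5 had an unadjusted p below 0.05, all higher, where 2.55% of all tested probes were higher at that p. PDIA6, a disulfide isomerase, had a difference of 0.30 ± 0.12 (SE, adjusted p = 0.898), DNAJC10, an ER reductase, 0.23 ± 0.09 (adjusted p = 0.888) and ERP44 0.19 ± 0.07 (adjusted p = 0.882). Of the 18, 13 lay above 0 in restricted minus low RFI, with a median of 0.14. In high minus low RFI the median was -0.02, and the calcium-binding protein CALU had -0.37 ± 0.12 (adjusted p = 0.260) and the peroxiredoxin PRDX4 -0.25 ± 0.15 (adjusted p = 0.637).

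The lists for entry to the ER and for the traffic out of it also lay mostly above 0 in restricted minus high RFI, the comparison that the choice of genes used. Translocon, signal peptidase and N-glycosylation genes were above 0 in 14 of 17, with a median of 0.17, and 5 had an unadjusted p below 0.05, all higher, where 2.55% of all tested probes were. SRP72, a subunit of the signal recognition particle, had the largest of the named differences, 0.48 ± 0.11 (SE, adjusted p = 0.702), with 0.36 ± 0.13 for SEC61A1, the channel of the translocon (adjusted p = 0.874), and 0.23 ± 0.09 for DDOST, an oligosaccharyltransferase subunit (adjusted p = 0.874). ER to Golgi transport genes were above 0 in 13 of 14, with a median of 0.17, and COPA of the COPI coat had 0.35 ± 0.10 (adjusted p = 0.744), SAR1A of the COPII coat 0.23 ± 0.07 (adjusted p = 0.760) and the cargo receptor TMED10 0.31 ± 0.12 (adjusted p = 0.898). In restricted minus low RFI the translocon list lay above 0 in 14 of 17 (median 0.19) and the transport list in 12 of 14 (median 0.11). In high minus low RFI both medians were at or below 0, at -0.0025 and -0.07, and the named genes SSR2, SPCS1, LMAN2 and SAR1A lay between -0.24 and -0.13.

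ER-associated degradation genes had a smaller median of 0.08 in restricted minus high RFI, with 10 of 12 above 0. At an unadjusted p below 0.05, 0 were higher, where 2.55% of all tested probes were, and 1 was lower. SELENOS and SELENOK, selenoproteins of that pathway, differed by 0.30 ± 0.16 and 0.22 ± 0.11 (SE, adjusted p = 0.933 for each). Against low RFI pigs, restricted pigs gave 7 of 12 above 0, with a median of 0.06. In high minus low RFI the list lay above 0 in 4 of 12, with a median of -0.04. EDEM1 and SEL1L, which recognise and extract misfolded proteins, differed there by 0.17 ± 0.09 and 0.19 ± 0.15 (adjusted p = 0.542 and 0.742). In restricted minus high RFI, sensors and regulators of the unfolded protein response were near 0, with a median of 0.04 and 7 of 13 above 0. NFYB and NFYC, subunits of the factor that binds ER stress elements with ATF6, differed by 0.30 ± 0.12 and 0.10 ± 0.06 (adjusted p = 0.900 and 0.947), and the translation initiation factor subunit EIF2S1, the substrate of PERK, by 0.14 ± 0.11 (adjusted p = 0.960). The median was 0.02 in restricted minus low RFI, with 8 of 13 above 0. In high minus low RFI the median was -0.07, with 3 of 13 above 0. BAK1 and CREB3 of this list differed there by 0.25 ± 0.12 and -0.08 ± 0.07 (adjusted p = 0.530 and 0.768).

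The targets of ATF4 and DDIT3 lay mostly below 0 in restricted minus high RFI, with 6 of 16 above it and a median of -0.08, and went both ways. In restricted minus low RFI they lay on the other side, with 10 of 16 above 0 and a median of 0.14. At an unadjusted p below 0.05, 4 were higher, where 6.13% of all tested probes were, and 1 was lower. The values that follow are for restricted minus high RFI unless another comparison is named. The amino acid transporter SLC38A2 had 0.69 ± 0.25 (SE, adjusted p = 0.869) and CTH, which makes cysteine, 0.45 ± 0.16 (adjusted p = 0.869), whereas PHGDH, the first enzyme of serine synthesis, had -0.65 ± 0.26 (adjusted p = 0.898). The transporter genes SLC3A2 and SLC7A1 differed by 0.41 ± 0.17 and 0.38 ± 0.22 in high minus low RFI (adjusted p = 0.440 and 0.621).

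Chaperone genes outside the ER, most of them cytosolic, had a median of 0.08 both in restricted minus high RFI (11 of 14 above 0) and in high minus low RFI (12 of 14 above 0). In restricted minus low RFI their median was 0.26 with 13 of 14 above 0, above the 0.14 of the ER folding enzymes there. CCT3 and TCP1, subunits of the chaperonin, differed by 0.23 ± 0.10 and 0.20 ± 0.11 (SE) between restricted and high RFI pigs (adjusted p = 0.926 and 0.933), and the HSP70 gene HSPA1L by 0.41 ± 0.21 (adjusted p = 0.933). HSP90AA1, the cytosolic HSP90, and HSPH1, an HSP70 relative, differed by 0.01 ± 0.16 and 0.02 ± 0.34 there and by 0.33 ± 0.16 and 0.59 ± 0.34 in high minus low RFI (adjusted p = 0.513 and 0.624). By its brightest probe, HSP90B1 differed by 0.26 between restricted and high RFI pigs and by 0.03 between high and low RFI pigs, and no test of the difference between these genes was made.

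**Figure D4:**
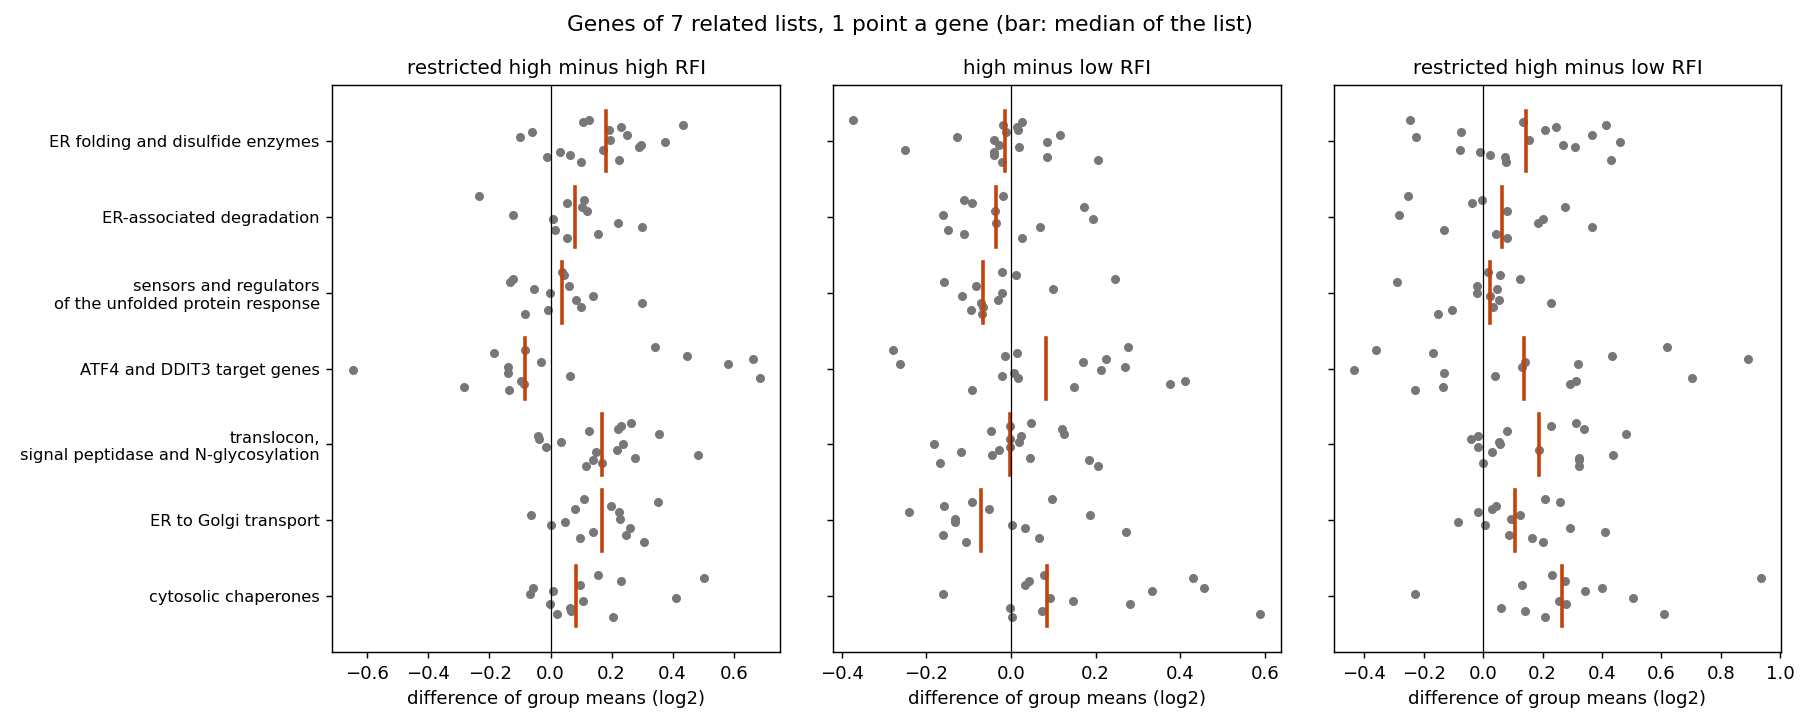
Difference of group means (log2, x axis) of the genes of 7 related lists, 1 point a gene, in the 3 comparisons, with x ranges that differ between panels. The bar is the median of the list. In restricted minus high RFI the medians of ER folding enzymes, translocon genes and ER to Golgi transport lie between 0.17 and 0.18, and that of ATF4 and DDIT3 targets at -0.08.

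Markers of secretory cells, hepatocytes and stellate cells were measured beside these values. Pancreatic acinar markers, 8 of 23 on the array, summed to a median linear level of 3.55 (2.61 to 5.0) in restricted, 4.12 (3.22 to 5.96) in high RFI and 5.0 (2.91 to 8.21) in low RFI pigs, and CELA1 was never above background. CPB1, PNLIP and PNLIPRP1 were well above background on only 5, 3 and 1 of 24 arrays. Plasma and B cell markers, 3 of 16 on the array, summed to 0.200 (0.126 to 0.328) in restricted, 0.212 (0.149 to 0.264) in high RFI and 0.205 (0.162 to 0.238) in low RFI pigs. Hepatocyte markers, 8 of 11 on the array and all above background, summed to 3215 (3020 to 3317) in restricted, 3278 (2909 to 3551) in high RFI and 3195 (3130 to 3326) in low RFI pigs. Stellate and fibroblast markers, 5 of 12 on the array, summed to 38.2 (23.5 to 55.3) in restricted, 41.7 (24.3 to 65.4) in high RFI and 47.2 (32.5 to 73.6) in low RFI pigs. In restricted minus low RFI all 5 lay below 0, with a median of -0.63, where 48.7% of all tested probes lay above 0. RGS5, a pericyte gene, was at -1.29 ± 0.30 (SE, adjusted p = 0.0643) and the collagen gene COL1A2 at -0.84 ± 0.21 (adjusted p = 0.0827) there. Of the 4 acinar markers tested, 1 lay above 0 in that comparison, with a median of -1.01. The carboxypeptidase gene CPA1 was at -1.81 ± 0.46 (adjusted p = 0.0834) and CELA2A at -1.72 ± 0.74 (adjusted p = 0.330). CLPS was at -0.29 ± 0.15 and AMY2 at 0.02 ± 0.12 (adjusted p = 0.453 and 0.866). Kupffer and macrophage markers lay above 0 in 3 of 4, with a median of 0.16, and CD163, a scavenger receptor, was at 0.48 ± 0.16 (adjusted p = 0.202). In the same comparison the cholangiocyte list lay above 0 in 4 of 5 (median 0.16), the endothelial list in 0 of 8 (median -0.12) and the neutrophil list in 0 of 5 (median -0.38). High minus low RFI put 0 of 5 stellate markers above 0 (median -0.47) and 1 of 4 acinar markers (median -0.70). Of all tested probes, 50.9% lay above 0 there. The Kupffer list had 3 of 4 (median 0.19) and the cholangiocyte list 3 of 5 (median 0.10). The endothelial list had 1 of 8 (median -0.13) and the neutrophil list 0 of 5 (median -0.54). RGS5 was at -1.10 ± 0.30 (adjusted p = 0.165) and CPA1 at -1.32 ± 0.46 (adjusted p = 0.323) in high minus low RFI. Summed levels in restricted, high RFI and low RFI pigs had medians of 82.6, 78.3 and 75.2 for Kupffer cells, 3.59, 3.15 and 3.31 for cholangiocytes, 28.8, 32.3 and 35 for endothelial cells and 1.38, 1.55 and 1.61 for neutrophils. These genes were named after their values were seen, and the part of these cell types in the values of the chaperone genes was not tested.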

How the data were processed

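Liver RNA of 24 pigs was read on 1-colour Agilent arrays, 1 array a pig, per the labels. Intensity values are the processed signal of Agilent Feature Extraction 10.7.3.1, background-subtracted and detrended per the file headers, with 0 or 1 flags for spots well above background deposited beside them. A further table of log2 values was deposited by the authors, equal to log2 of that signal minus the array median over 27564 features. R 2.10.0 is named in the submitters' processing notes. No genome build of the array design is given here, so no positions are printed, and pig promoter and protein sequences were not used here.

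From the scanner output, 1417 control features were left out of 45220, the array's 75th percentile was subtracted from log2 signals, spots of a probe were averaged, and probes well above background on at least 6 of 8 arrays of a group were tested with limma 3.58.1 (R 4.3.3) over all 24 arrays with group as the only factor and Benjamini-Hochberg adjustment over 29665 probes. Replicates are separate pigs, per the labels. The fit was tested on simulated data. Correlations used 100000 permutations of pigs within groups, two-sided (numpy 2.4.6, scipy 1.17.1). None of the 37 probes of the 10 genes (0) was flagged as saturated on any array. The brightest HSP90B1 probe reached a mean signal of 64086 units and gave the smallest restricted minus high RFI difference of its gene, 0.26. Its correlations with the other tested HSP90B1 probes across pigs were 0.61 to 0.84, and the part of its high signal in these values was not tested. Each gene is led by its brightest tested probe, and levels of different probes are not compared. List genes named are those with the 3 smallest unadjusted p in restricted minus high RFI and the 2 smallest in high minus low RFI, and 73 probes of list genes were named by full names in the descriptions. Of the list and marker genes, 2 are not reported here. The members and lists were chosen with earlier results of these data known. Alternatives were normexp (offset 50), quantile normalization, the deposited table, other filters, slide, scan day or pig number as a block, array weights and pigs left out.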

Additional observations from a re-analysis of the deposited data

Results flagged for a closer look

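In 3 of the 33 sets of 8 pigs examined (10 genes and the mean of the 7 chaperone and folding genes, in 3 groups), 1 pig stood apart from the other 7 by a gap that was large for the range of its group (Dixon's test), where chance gives about 1 such set in 20. DNAJB11 was highest in restricted pig 3, at 3.41 against 2.83 in the next pig. It was lowest in high RFI pig 8, at 1.89 against 2.29 in the next. PDIA4 was highest in low RFI pig 4, at 3.87 against 3.37 in the next.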

How the results depend on the processing

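No member probe passed the threshold under any of the 41 alternatives in any comparison, with a smallest adjusted p of 0.0521, without low RFI pig 4, in restricted minus low RFI. The median difference over the members ranged over 0.24 to 0.32 with each pig left out and 0.23 to 0.34 elsewhere in restricted minus high RFI, over 0.30 to 0.44 and 0.32 to 0.45 in restricted minus low RFI, and, with a change of sign, over -0.01 to 0.09 and 0.01 to 0.10 in high minus low RFI, where 3 to 8 of the 10 genes lay above 0 with a pig left out. Normexp moved the median of all probes to -0.11 in restricted minus low RFI, where HYOU1 was at -0.09, ATF4 turned to -0.02 and -0.02 with quantile normalization in the comparisons of restricted with high and low RFI pigs, and DDIT3 turned to 0.005 with normexp in restricted minus low RFI. Leaving out spots marked as outliers was added after the data were seen. The count of genes correlated with HSPA5 by Pearson's r, 1 of 9, was 0 with normexp, 2 with quantile normalization, 2 with slide means also subtracted and 3 with scan day means subtracted, and the cause was not tested. Pig numbers are shared between groups, and no label links same-numbered pigs. These deviated with correlations of -0.18 to 0.42, over 0.1 in 5 of 8 pairs of restricted and high RFI pigs, 1 of 8 of high and low RFI pigs and 2 of 8 of restricted and low RFI pigs, so pairing was not taken as shown in any comparison. With the replicate block, 0 member probes passed in each comparison, and 50 of all probes passed in high minus low RFI and 93 in restricted minus low RFI, against 48 and 66 without it. With normexp 5 and 13 of all probes passed, and the count of XBP1 probes lower in high than in low RFI pigs at an unadjusted p below 0.05, 5 as reported, was 0, as it was on the first scan day alone. Signal over background limits HYOU1 and the dim probes of XBP1, PDIA4 and HSP90B1.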
